A study of Araneus ventricosus with 24 samples.

Results

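Vitellogenins and the large lipid transfer proteins of *Araneus ventricosus*, an orb-weaving spider, were followed in the ampullate gland and the cerebral ganglia. The members are the assembled gene clusters whose protein database description names a vitellogenin, an apolipophorin or a microsomal triglyceride transfer protein, in any spelling of case. This rule found 21 of 142219 clusters: 7 apolipophorins, 6 microsomal triglyceride transfer proteins, 5 vitellogenins and 3 vitellogenin receptors. Spiders had been exposed for 30 days to cadmium plus lead (combined), to lead or to cadmium, or were left untreated, and RNA of both tissues was sequenced. Doses, sex, age and the number of animals behind a library are not given in the labels. Of 24 deposited columns, 4 repeat another column of their group in all 142219 clusters and were counted once. Each tissue then has 2 combined, 2 lead, 3 cadmium and 3 untreated libraries, 20 in all. The labels do not say that these came from separate animals; a p-value here weighs a difference only against the variation among libraries, which may be technical.

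These proteins belong to one family of large lipid carriers. Vitellogenin is the precursor of yolk; it is made outside the oocyte, carried in the hemolymph and taken up through the vitellogenin receptor. Apolipophorin is the protein scaffold of lipophorin, the particle that ferries lipid between tissues in insects and other arthropods, and is related to apolipoprotein B of vertebrates. Microsomal triglyceride transfer protein (MTP) works in the endoplasmic reticulum, where it loads lipid onto nascent lipoproteins; in vertebrates it pairs with protein disulfide isomerase.

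The domain annotation in the deposited table follows this kinship. The lipoprotein amino-terminal region, the lipid-binding module of the family, was annotated in 10 of the 21 members: 4 MTP clusters, 3 apolipophorins and 3 vitellogenins. The vitellinogen open beta-sheet was annotated in 6, a domain of the MTP large subunit in 2, and the ligand-binding class A repeat of the low-density lipoprotein receptor in all 3 receptor clusters. Several members are short, and clusters that share a name may derive from a single gene. The longest, apolipophorin Cluster-16698.47398, has 14339 bases, and the shortest, apolipophorin Cluster-16698.27228, has 311. Cluster-16698.47398 is named by a locust apolipophorin and its closest spider protein is uncharacterized. Cluster-16698.49319 (11220 bases) is a spider apolipophorin whose Swissprot hit is a shrimp vitellogenin, and Cluster-16698.59717 (7259 bases) resembles apolipoprotein B.

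Levels differed widely among the members. Cluster-16698.47398 alone held 69.0% of all member counts. Per length it averaged 22.1 FPKM (fragments scaled to cluster length and library size) over the 20 libraries. The MTP cluster Cluster-16698.50199 averaged 10.8 FPKM, and the vitellogenin Cluster-16698.65830 averaged 8.74 FPKM. The vitellogenin Cluster-16698.72344 averaged 4.47 FPKM, and the other long apolipophorins averaged 3.30 FPKM (Cluster-16698.49319) and 2.20 FPKM (Cluster-16698.59717). FPKM of clusters little longer than a fragment, such as Cluster-16698.27228 at 16.4 FPKM from 295 counts in all, rest on few usable positions. In all, 18 members reached a mean of at least 1 CPM in some group and are described below. CPM here is the count scaled to library size with the trimmed-mean (TMM) factors. The other 3, the apolipophorins Cluster-23581.0 and Cluster-22173.0 and the MTP cluster Cluster-16698.20210, held 31, 23 and 26 counts in all and were not tested.

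Library totals ran from 14834065 to 20954478 counts. Marker lists partly matched the labelled tissues. The 75 silk clusters summed to 43200 to 208900 CPM in untreated glands and to 1583 to 7013 CPM in untreated ganglia. The 43 nerve clusters did not separate the tissues, with 898 to 1239 CPM in untreated glands and 669 to 955 CPM in untreated ganglia, whereas 107 muscle clusters summed to 3391 to 5102 CPM in untreated glands and to 27040 to 58480 CPM in untreated ganglia. Vitellogenin and lipophorin are also known from tissues that a dissection may include. The ovary and germ line list (134 clusters, mostly zinc finger proteins named after oocytes) summed to 444 to 1147 CPM in untreated glands and to 323 to 419 CPM in untreated ganglia. The mean fragment length implied by the deposited FPKM was 277.3 to 278.4 bases in glands with lead and 246.9 to 273.5 in glands without. It was 271.2 to 281.2 bases in ganglia with lead and 248.0 to 261.9 in ganglia without. Lead exposure and this feature of the libraries therefore cannot be told apart. In bulk tissue, fewer cells of a type and less RNA per cell cannot be told apart either.

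MTP transcripts stood higher in glands exposed to lead, with or without cadmium, and 3 clusters passed the test. The pattern appeared in 4 of the 5 tested MTP clusters: Cluster-16698.50199 (3659 bases, with the MTP large subunit domain) and the shorter Cluster-16698.66533, Cluster-16698.55272 and Cluster-16698.16936, which carry the lipoprotein amino-terminal region. Their summed level was 155 ± 103 CPM in combined glands (SD, n = 2) and 210 ± 156 CPM in lead glands (n = 2). It was 35.2 ± 10.7 CPM in cadmium glands (n = 3), against 19.9 ± 21.9 CPM in untreated glands (n = 3). In the gland the levels of these 4 clusters followed each other, with r of 0.861 to 0.981 over 10 libraries on the log2 scale. The libraries share exposures and depth. Whether the 4 clusters belong to a single transcript was not tested, so counts of members below may count the same gene repeatedly.

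Cluster-16698.50199 had 170 and 43.4 CPM in combined glands, 207 and 66.7 CPM in lead glands, 20.8, 27.3 and 35.8 CPM in cadmium glands, and 6.48, 3.79 and 41.8 CPM in untreated glands. All 4 glands with lead lay above all 6 without, the lowest by a narrow margin over untreated replicate 3. Cluster-16698.66533 had 31.3 and 19.6 CPM in combined glands, 52.3 and 14.2 CPM in lead glands, 1.76, 5.05 and 6.24 CPM in cadmium glands, and 2.68, 0.523 and 1.42 CPM in untreated glands. Here the gap between glands with and without lead was wide.

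Cluster-16698.55272 had 19.0 and 13.5 CPM in combined glands, 34.5 and 10.1 CPM in lead glands, 1.03, 3.05 and 2.04 CPM in cadmium glands, and 0.782, 0.0654 and 1.24 CPM in untreated glands. Cluster-16698.16936 had 7.89 and 6.25 CPM in combined glands, 26.9 and 8.86 CPM in lead glands, 0.490, 0.567 and 1.36 CPM in cadmium glands, and 0, 0.262 and 0.556 CPM in untreated glands. In both, glands with lead did not overlap those without, and lead replicate 1 was the highest library.

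**Figure D1:**
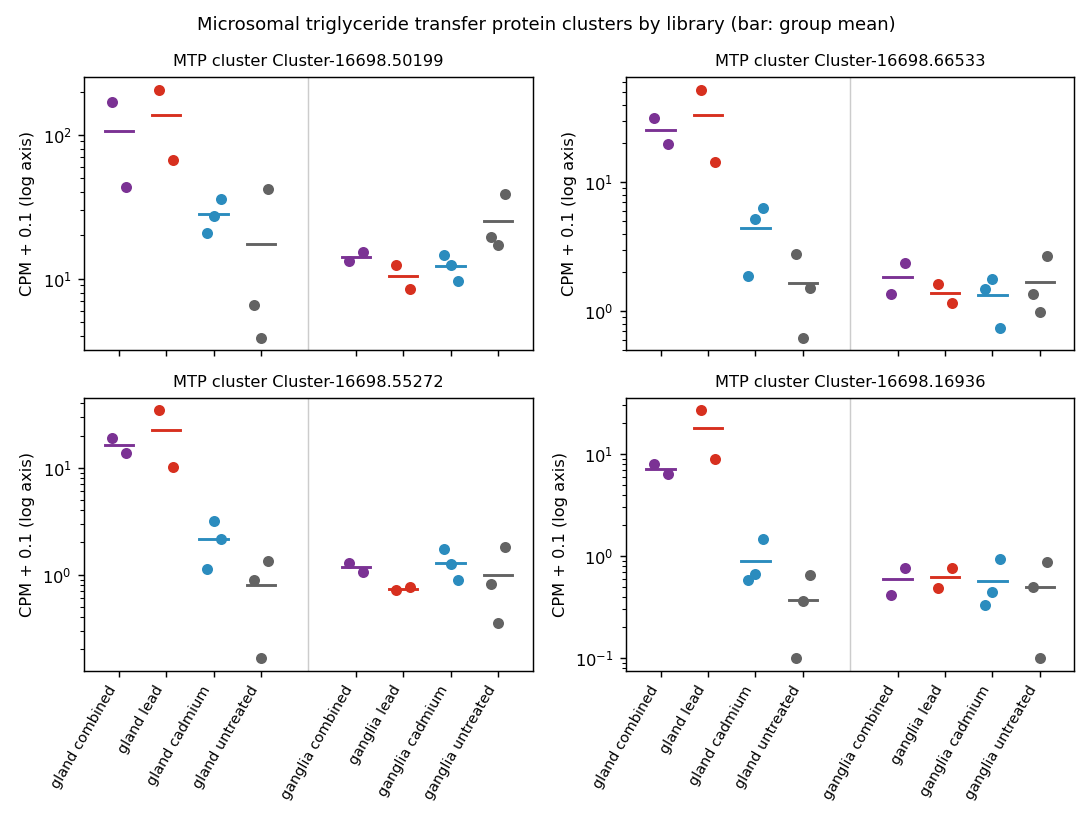
CPM + 0.1 on a log axis of 4 MTP clusters in each library (points) with the group mean (bar), for glands and ganglia under combined, lead, cadmium and no exposure. Glands with lead lie above all glands without, and ganglia show no such gap; Cluster-16698.55272, for example, spans 10.1 to 34.5 CPM in glands with lead and stays under 2 CPM in ganglia.

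Each tissue was tested with edgeR's quasi-likelihood test over all its clusters with Benjamini-Hochberg adjustment, and a call is an adjusted p under 0.05. The change with lead, averaged over cadmium status, was called for 3 of 17 tested members in the gland, against 1.68% of all 44505 clusters. All 3 were higher, against 1.05% of all clusters, and none was lower, against 0.631%. Cluster-16698.16936 rose by 4.69 ± 0.78 (log2 ratio ± SE, 25.8-fold, adjusted p = 0.028). Cluster-16698.55272 rose by 4.08 ± 0.69 (16.9-fold, adjusted p = 0.0302). Cluster-16698.66533 rose by 3.57 ± 0.59 (11.9-fold, adjusted p = 0.028). Cluster-16698.50199 had a log2 ratio of 2.54 ± 0.71 (adjusted p = 0.0927) and was not called. The fifth tested MTP cluster, Cluster-16698.41076, averaged 0.753 CPM in glands with lead and 1.58 CPM in glands without (log2 ratio -1.09 ± 0.77, adjusted p = 0.402). Over the 17 members the median log2 ratio was 0.32, against -0.16 over all clusters. By position alone, 5 of 17 members had every gland with lead above every gland without, against 6.06% of all clusters: these 4 MTP clusters and apolipophorin Cluster-16698.47398. None had every gland with lead below, against 5.15% of all.

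The 3 calls depended on single libraries. Leaving out cadmium gland replicate 1, 2 or 3 ended all 3, with adjusted p from 0.0743 to 0.113 and log2 ratios from 3.38 to 4.98. Without combined gland replicate 2, Cluster-16698.55272 (adjusted p = 0.052) and Cluster-16698.16936 (adjusted p = 0.0519) were not called. Without untreated gland replicate 3, the library with the high value of Cluster-16698.50199, that cluster was called as well (3.41 ± 0.52, adjusted p = 0.0163). Some other tissue markers differed with lead in the gland. The muscle sums did not overlap, whereas the sums of the other tissue marker lists did. Muscle clusters summed to 1551 to 2829 CPM in glands with lead and to 3321 to 5102 CPM in glands without, with 32 of 107 at 0 in all glands with lead and 16 of 107 in all glands without. Hemolymph and hemocyte clusters summed to 122 to 1542 CPM in glands with lead and to 467 to 8446 CPM in those without, with 11 of 71 at 0 with lead and 2 of 71 without; 5 of the 15 hemocyanins were at 0 in all glands with lead and none in all glands without. Midgut digestion clusters amounted to 664 to 3569 CPM in glands with lead and 1409 to 3009 CPM in those without. Of 68 tested silk clusters, 15 were called higher with lead and 3 lower, with a median log2 ratio of 3.79, in the direction of the MTP clusters. Their summed level overlapped, at 69410 to 156900 CPM in glands with lead and 43200 to 208900 CPM in those without, with 0 of 75 at 0 in either. The counts at 0 come from 4 libraries with lead and 6 without, and fewer libraries alone leave more clusters at 0. The part of these markers in the MTP result was not tested.

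Against untreated glands alone, edgeR called 0 of 17 members under lead and 0 of 17 under combined exposure, where it called 0.0% and 0.225% of all clusters (0.119% higher and 0.106% lower under combined exposure). At an unadjusted p under 0.05 there were 6 members under lead and 6 under combined exposure, against 11.9% and 14.9% of all clusters. DESeq2 called 4 members in each, against 4.15% of all clusters under lead and 7.35% under combined exposure. The MTP log2 ratios under lead alone were 6.15 ± 1.18 for Cluster-16698.16936, 5.08 ± 1.02 for Cluster-16698.55272, 4.52 ± 0.87 for Cluster-16698.66533 and 3.09 ± 1.01 for Cluster-16698.50199, with adjusted p from 0.216 to 0.339. Under combined exposure, in the same order of clusters, they were 4.85 ± 1.12, 4.66 ± 1.01, 4.16 ± 0.86 and 2.73 ± 1.0, with adjusted p from 0.0911 to 0.284. Both comparisons use the same untreated glands. Leaving out lead replicate 2 brought Cluster-16698.66533 (adjusted p = 0.0248) and Cluster-16698.55272 (adjusted p = 0.0356) under the threshold in combined glands. So did leaving out lead replicate 1 for Cluster-16698.66533 (adjusted p = 0.0364) and untreated replicate 3 for Cluster-16698.50199 (adjusted p = 0.0382).

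In the ganglia the same MTP clusters were low and did not move with lead past the test. Their sum was 17.5 ± 2.3 CPM in combined ganglia (SD, n = 2), 12.8 ± 2.9 CPM in lead ganglia (n = 2) and 15 ± 3.0 CPM in cadmium ganglia (n = 3), against 27.9 ± 13.7 CPM in untreated ganglia (n = 3). Cluster-16698.50199 had 13.1 and 15.2 CPM in combined ganglia, 12.3 and 8.34 CPM in lead ganglia, 14.4, 12.4 and 9.52 CPM in cadmium ganglia, and 19.5, 17.1 and 38.5 CPM in untreated ganglia, which were the 3 highest. Its log2 ratio was -1.30 ± 0.39 under lead against untreated (adjusted p = 0.0797). The other 3 clusters stayed between 0 and 2.59 CPM in every ganglia library. Between the tissues, the change with lead differed by 4.29 ± 0.88 for Cluster-16698.55272 (adjusted p = 0.0847) and by 3.37 ± 0.75 for Cluster-16698.66533 (adjusted p = 0.11). It differed by 4.34 ± 1.13 for Cluster-16698.16936 (adjusted p = 0.164) and by 2.98 ± 0.81 for Cluster-16698.50199 (adjusted p = 0.19). In this test, added after the data were seen, edgeR called 0 of 18 members, against 0.0424% of all clusters (0.00963% higher and 0.0328% lower); 7 members and 11.8% of all clusters had an unadjusted p under 0.05, and DESeq2 called 4 members and 2.51% of all. Leaving out 1 gland library brought Cluster-16698.55272 under the threshold for combined replicate 1, lead replicate 2 and untreated replicates 2 and 3 (adjusted p from 0.0319 to 0.0457), and Cluster-16698.50199 for untreated replicate 3 (adjusted p = 0.0192). A test of all exposure changes between tissues (edgeR, 3 degrees of freedom) called 0 of 18 members and 0.0% of all clusters; 4 members and 6.14% of all clusters had an unadjusted p under 0.05, and DESeq2 called 3 members and 1.13% of all.

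**Figure D2:**
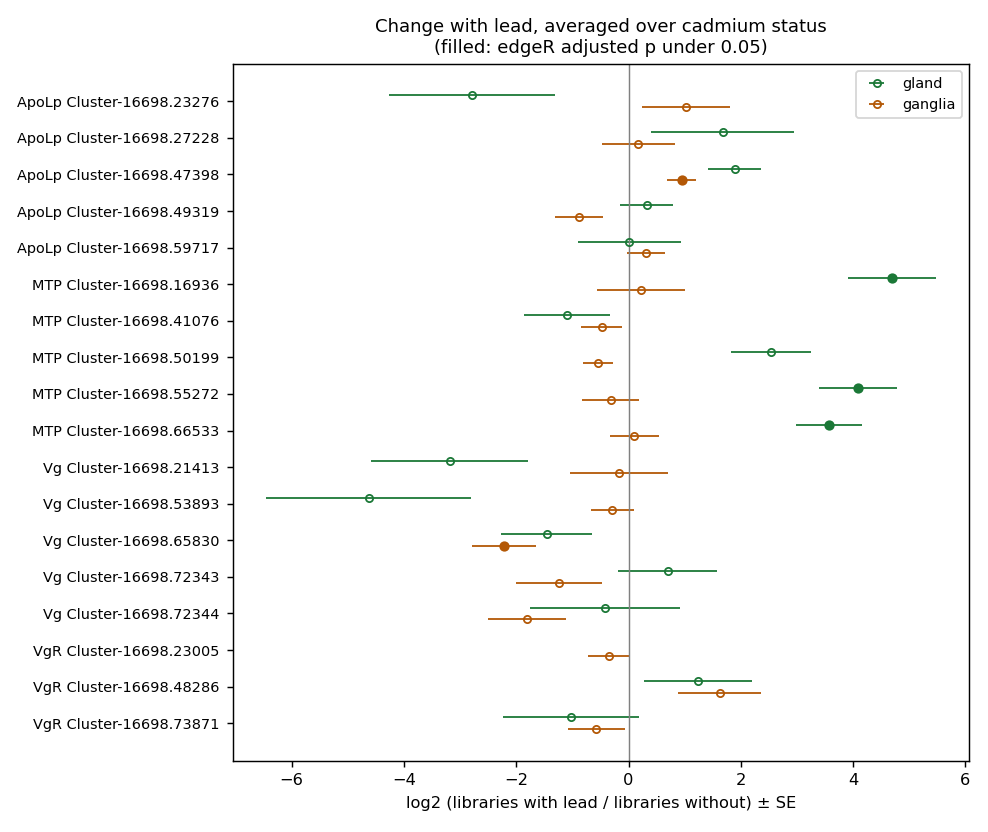
Log2 ratio ± SE of libraries with lead over those without, averaged over cadmium status, for each tested member in glands and ganglia; filled points are called by edgeR. The 3 filled gland points are MTP clusters at 3.57 to 4.69, and the filled ganglia points are apolipophorin Cluster-16698.47398 at 0.95 and vitellogenin Cluster-16698.65830 at -2.22.

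Among the apolipophorins, Cluster-16698.47398, which held most member counts, was higher with lead in the ganglia. It was also higher in the ganglia than in the gland of untreated spiders. In ganglia it had 884 and 523 CPM under combined exposure, 604 and 482 CPM under lead, 192, 217 and 336 CPM under cadmium, and 374, 297 and 540 CPM in untreated spiders. The highest untreated library overlapped the libraries with lead. In glands it had 472 and 266 CPM under combined exposure, 230 and 237 CPM under lead, 58.7, 184 and 123 CPM under cadmium, and 73.4, 90.4 and 16.8 CPM in untreated spiders. Here all 4 glands with lead lay above all 6 without.

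The group means ordered as combined, lead, untreated and cadmium in the ganglia (704, 543, 404 and 248 CPM) and as combined, lead, cadmium and untreated in the gland (369, 234, 122 and 60.2 CPM). In the ganglia all neighbours in this order overlapped. In the gland cadmium and untreated libraries overlapped, whereas both combined glands lay above both lead glands, and these above all 3 cadmium glands. With lead, Cluster-16698.47398 rose in the ganglia by 0.95 ± 0.26 (1.93-fold, adjusted p = 0.0414). In the gland the log2 ratio was 1.89 ± 0.48 (3.70-fold, adjusted p = 0.0726), and the change did not differ between tissues past the test (0.81 ± 0.58, adjusted p = 0.646). It was 1 of 2 members of 18 called in the ganglia in this comparison, where 12.2% of all 38659 clusters were called (6.54% higher and 5.69% lower), so the count is near the background. The median log2 ratio over the 18 members was -0.30, against -0.04 over all clusters. By position, 0 of 18 members had every ganglia library with lead above or every one below those without, against 6.15% and 5.91% of all clusters. The ganglia call ended on leaving out combined replicate 1 (0.75, adjusted p = 0.137), lead replicate 1 or 2 (adjusted p = 0.149 and 0.0796), cadmium replicate 1 or 2 (adjusted p = 0.0655 and 0.0727) or untreated replicate 1 or 2 (adjusted p = 0.0693 and 0.0585). Without untreated gland replicate 3 the gland change was called (1.65 ± 0.40, adjusted p = 0.0477). Midgut digestion clusters amounted to 2709 to 5235 CPM in ganglia with lead and 787 to 3194 CPM in ganglia without (11 of 155 and 17 of 155 at 0), and 17 of 112 were called higher and 2 lower. Nerve clusters amounted to 1034 to 1671 CPM in ganglia with lead and 669 to 1279 CPM in ganglia without (1 of 43 and 0 of 43 at 0), and 5 of 36 were called higher and 0 lower. Their part in the change of Cluster-16698.47398 was not tested.

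**Figure D3:**
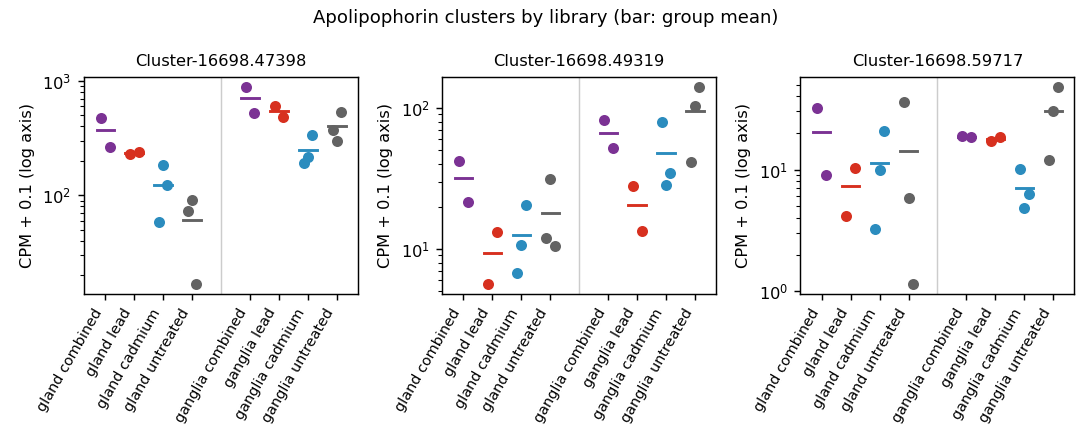
CPM + 0.1 on a log axis of the 3 longest apolipophorin clusters in each library (points) with the group mean (bar). Cluster-16698.47398 lies at 230 to 472 CPM in glands with lead, above the 16.8 to 184 CPM of the other glands, and at 192 to 884 CPM in ganglia.

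The other long apolipophorins did not share this pattern. Cluster-16698.49319 had 81.5 and 51.7 CPM in combined ganglia, 27.7 and 13.3 CPM in lead ganglia, 80.0, 28.3 and 34.5 CPM in cadmium ganglia, and 41.3, 104 and 141 CPM in untreated ganglia. The 2 lead ganglia were the lowest, and the log2 ratio under lead against untreated was -2.23 ± 0.64 (edgeR adjusted p = 0.07). In glands it ran from 5.57 to 42.0 CPM, highest in combined replicate 1. Cluster-16698.59717 had 18.7 and 18.4 CPM in combined ganglia, 17.1 and 18.3 CPM in lead ganglia, 10.03, 4.68 and 6.24 CPM in cadmium ganglia, and 11.9, 30.2 and 47.6 CPM in untreated ganglia. Its cadmium ganglia were the 3 lowest, with a log2 ratio of -2.10 ± 0.46 against untreated (unadjusted p = 9.26e-04, adjusted p = 0.62). In glands it ran from 1.05 to 35.6 CPM with both ends in untreated spiders.

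The remaining tested apolipophorins were low in CPM. Cluster-16698.23276, whose only annotated domain (DYW deaminase) is not one of lipid carriers, had 10.4 CPM in untreated gland replicate 3 and 0 and 0.0654 CPM in the other untreated glands. Cluster-16698.27228 varied between 0 and 2.67 CPM over all groups.

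A set of 3 vitellogenin clusters was low in ganglia given lead alone, and 1 of them passed the test. Cluster-16698.65830 (1157 bases) had 14.5 and 3.44 CPM in combined ganglia, 0.815 and 0.527 CPM in lead ganglia, 13.6, 3.29 and 3.54 CPM in cadmium ganglia, and 11.3, 24.6 and 21.3 CPM in untreated ganglia. The lead ganglia were the 2 lowest of the 10, and combined ganglia were not low together. Cluster-16698.72344 (2220 bases) had 25.9 and 3.97 CPM in combined ganglia, 1.10 and 0.922 CPM in lead ganglia, 19.1, 2.95 and 3.33 CPM in cadmium ganglia, and 13.9, 31.9 and 19.1 CPM in untreated ganglia. Again the lead ganglia were lowest. Cluster-16698.72343 (2484 bases) had 16.1 and 2.10 CPM in combined ganglia, 0.767 and 0.790 CPM in lead ganglia, 9.95, 0.636 and 2.06 CPM in cadmium ganglia, and 6.92, 13.7 and 7.14 CPM in untreated ganglia. Here cadmium replicate 2 was lower than both lead ganglia.

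The levels of these 3 clusters followed each other closely, with r of 0.915 to 0.983 in ganglia and 0.74 to 0.806 in glands (10 libraries each, log2 scale, shared exposures and depth). Whether they belong to a single transcript was not tested. Against untreated ganglia, 1 of 18 members was called under lead, where 4.92% of all clusters were called (2.67% higher and 2.24% lower), so the count is near the background. That member was lower. Cluster-16698.65830 fell by 4.84 ± 0.93 on the log2 scale (28.6-fold, edgeR adjusted p = 0.0293). The log2 ratios of Cluster-16698.72344 (-4.43 ± 1.13, adjusted p = 0.0561) and Cluster-16698.72343 (-3.58 ± 1.22, adjusted p = 0.114) were not called. The call for Cluster-16698.65830 ended without lead replicate 1 (-5.16, adjusted p = 0.165), lead replicate 2 (-4.54, adjusted p = 0.28) or untreated replicate 3 (-4.76, adjusted p = 0.0607). Cluster-16698.72344 was called without combined replicate 1 (adjusted p = 0.0474) or cadmium replicate 1 (adjusted p = 0.0311).

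For Cluster-16698.65830 lead ganglia lay below untreated ganglia, whereas combined ganglia (3.44 and 14.5 CPM) overlapped cadmium ganglia (3.29 to 13.6 CPM). Averaged over cadmium status, and so over these unlike differences, the cluster fell by 2.22 ± 0.57 with lead in the ganglia (edgeR adjusted p = 0.0355). This call ended without combined replicate 2 (-1.87, adjusted p = 0.102), lead replicate 1 (-2.38, adjusted p = 0.131), lead replicate 2 (-2.06, adjusted p = 0.158), untreated replicate 2 (-2.11, adjusted p = 0.0511) or untreated replicate 3 (-2.19, adjusted p = 0.0564). Beside these changes, hemolymph and hemocyte clusters summed to 4599 to 5724 CPM in lead ganglia and to 5356 to 18350 CPM in untreated ganglia, with 5 of 71 at 0 in the lead libraries and 4 of 71 in the untreated ones. Ovary and germ line clusters summed to 322 to 340 CPM in lead ganglia and to 323 to 419 CPM in untreated ganglia, with 8 of 134 at 0 in the lead libraries and 13 of 134 in the untreated ones. Silk and nerve clusters did not overlap between these groups. Silk clusters summed to 299 and 875 CPM in lead ganglia and to 1583 to 7013 CPM in untreated ganglia (16 of 75 and 15 of 75 at 0), and 4 of 49 tested were called lower and 0 higher. Nerve clusters summed to 1352 and 1671 CPM in lead ganglia and to 669 to 955 CPM in untreated ganglia (1 of 43 and 3 of 43 at 0), and 3 of 36 tested were called higher and 0 lower. The part of these lists in the vitellogenin values was not tested.

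In glands the same 3 vitellogenins summed to 15.9 and 61.3 CPM under combined exposure, 1.04 and 3.76 CPM under lead, 2.45 to 48.2 CPM under cadmium, and 6.31 to 22.2 CPM in untreated spiders. The 2 lead glands were again low, but 1 cadmium gland lay between them. Cluster-16698.65830 had 18.2 and 5.05 CPM in combined glands, 0.606 and 0.811 CPM in lead glands, 0.980, 2.61 and 21.8 CPM in cadmium glands, and 5.25, 10.8 and 9.70 CPM in untreated glands. Its log2 ratio under lead was -3.44 ± 1.27 (edgeR adjusted p = 0.375), which was not called. The remaining vitellogenins behaved differently. Cluster-16698.53893 (5492 bases), which resembles vitellogenin-4 of a house spider, had 0.0737 and 1.35 CPM in combined glands, 0.424 and 0.116 CPM in lead glands, 37.0, 3.18 and 22.6 CPM in cadmium glands, and 20.6, 0.0654 and 0.123 CPM in untreated glands. All 3 cadmium glands were above all glands with lead, but 2 of 3 untreated glands were as low as those with lead. With lead averaged over cadmium status its log2 ratio was -4.63 ± 1.83 (edgeR adjusted p = 0.168). Within glands Cluster-16698.53893 passed the count filter only through those without lead, where it is high. This ratio therefore had to run in that direction and is given as a description. In ganglia it stayed between 1.36 and 5.77 CPM. Cluster-16698.21413 ran from 0 to 5.17 CPM over all libraries.

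**Figure D4:**
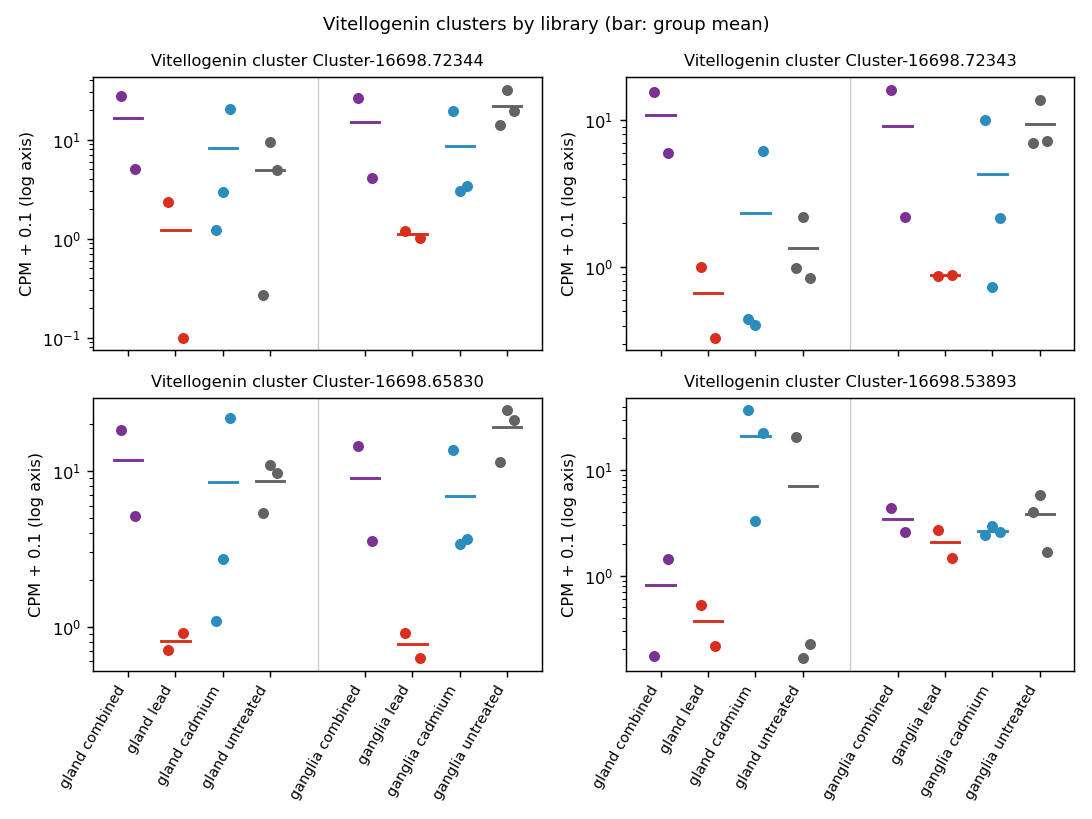
CPM + 0.1 on a log axis of 4 vitellogenin clusters in each library (points) with the group mean (bar). In ganglia, Cluster-16698.65830 lies at 0.527 to 0.815 CPM under lead, below the 3.29 to 24.6 CPM of all other ganglia, while Cluster-16698.53893 varies mainly between glands.

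The design also allows combined exposure to be set against the sum of the separate log2 changes under cadmium and under lead. For the 3 vitellogenins combined ganglia held more than lead ganglia, and the ganglia value lay above that sum. The departure from the sum in ganglia was 5.22 ± 1.12 for Cluster-16698.65830, 5.24 ± 1.40 for Cluster-16698.72344 and 4.68 ± 1.56 for Cluster-16698.72343. The departures did not pass the test (edgeR adjusted p from 0.375 to 0.435), which called 0 of 18 members and 0.0% of all clusters. At an unadjusted p under 0.05 there were 6 members, including apolipophorins Cluster-16698.49319 (2.70 ± 0.84) and Cluster-16698.59717 (2.16 ± 0.71), against 10.1% of all clusters, and DESeq2 called 2 members and 1.02% of all. Whole marker lists departed from the sum in the same direction in the ganglia. The departure was positive for 45 of 49 silk clusters (median 3.79), 104 of 112 midgut digestion clusters (median 1.501) and 46 of 58 hemolymph and hemocyte clusters (median 1.02), against a median of 0.93 over the 18 members and -0.00407 over all clusters. It was positive for 4 of 36 nerve clusters (median -1.15). Their part in the vitellogenin departures was not tested. In the gland the departure was called for 0 of 17 members and 0.0% of all clusters, with 2 members and 1.79% of all clusters at an unadjusted p under 0.05. DESeq2 called 0 members and 0.166% of all there.

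Cadmium alone was followed by no called member in either tissue with edgeR, which called 0.0% of all clusters in both. Against untreated, 0 of 17 gland members and 3 of 18 ganglia members had an unadjusted p under 0.05, where 2.86% of all gland clusters and 7.62% of all ganglia clusters did. DESeq2 called 0 members in the gland and 1 in the ganglia, against 0.216% and 0.336% of all clusters. Averaged over lead status, edgeR called 0 members and 0.0% of all clusters in each tissue, 2 in the gland and 1 in the ganglia had an unadjusted p under 0.05 (3.58% and 3.37% of all clusters), and DESeq2 called 0 (0.685% and 0.0724% of all). Combined exposure in the ganglia gave 0 of 18 called members with edgeR, against 1.06% of all clusters (0.587% higher and 0.468% lower). DESeq2 called 0 members and 3880 of all 38659 clusters. At an unadjusted p under 0.05 edgeR had 1 member, against 22.1% of all clusters. This was Cluster-16698.23276 (log2 ratio 2.74 ± 1.06, adjusted p = 0.165). In ganglia it passed the count filter only through the combined libraries (0.861 and 1.13 CPM), with at most 0.309 CPM in the others. Its ratio had to run in that direction and is given as a description.

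Vitellogenin receptor clusters had few counts in both tissues. Cluster-16698.48286 (3204 bases), which resembles the receptor of another spider, had 1.63 and 10.4 CPM in combined ganglia, 6.13 and 5.53 CPM in lead ganglia, 0.925, 0.578 and 6.93 CPM in cadmium ganglia, and 1.32, 2.01 and 0.471 CPM in untreated ganglia. Per length its group means ran from 0.383 to 2.40 FPKM. In glands it ran from 0 to 5.36 CPM. Its log2 ratio with lead was 1.62 ± 0.73 in ganglia (edgeR adjusted p = 0.164) and 1.24 ± 0.96 in glands (adjusted p = 0.45), neither called. Cluster-16698.73871, a short cluster, ran from 0 to 1.44 CPM in glands and from 0.439 to 3.32 CPM in ganglia. Its Swissprot hit is the putative fruit fly yolk receptor. The other database matched it to low-density lipoprotein receptor-related protein 2, so its identity is uncertain.

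Cluster-16698.23005 was hardly detected in the gland. It is a 490-base cluster matched to a sea star vitellogenin receptor in one database and to low-density lipoprotein receptor-related protein 4 in another, so its identity is uncertain. It had 4.58 and 5.64 CPM in combined ganglia, 3.35 and 3.29 CPM in lead ganglia, 8.64, 6.13 and 4.49 CPM in cadmium ganglia, and 7.58, 2.01 and 3.06 CPM in untreated ganglia. Per length it averaged 15.4 to 25.8 FPKM in the ganglia groups, of the order of apolipophorin Cluster-16698.47398 in cadmium ganglia (18.1 FPKM), with the uncertainty of a short cluster. All combined and lead glands held 0 counts, the 3 cadmium glands 12 and the 3 untreated glands 4 in all. Against a floor of 3 counts over the 2 libraries of a group, its level in the gland was at least 68.0-fold lower than in ganglia under combined exposure and at least 37.6-fold lower under lead.

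Between tissues, both longest apolipophorins were lower in untreated glands than in untreated ganglia, while 4 MTP clusters were higher in glands than in ganglia under lead. In untreated spiders 3 of 18 members were called, against 10.3% of all 51904 clusters. All 3 were lower in the gland than in the ganglia, against 6.35% of all lower and 3.91% higher. Cluster-16698.47398 was lower by a log2 ratio of -2.75 ± 0.55 (6.71-fold, edgeR adjusted p = 0.00448) and Cluster-16698.49319 by -2.42 ± 0.62 (5.35-fold, adjusted p = 0.0203). The remaining call, Cluster-16698.23005, entered the test through the ganglia and had to run in that direction. Without it the count of calls is near the background. The call for Cluster-16698.49319 ended without untreated gland replicate 1 (-2.20, adjusted p = 0.0603) or 3 (-2.15, adjusted p = 0.063), or untreated ganglia replicate 3 (-2.19, adjusted p = 0.0542). The 4 MTP clusters stood at similar levels in untreated glands and ganglia, with log2 ratios between -0.53 and -0.02. The median log2 ratio was -1.12 over the 18 members and 0.10 over all clusters. Hemolymph and hemocyte clusters were also lower in untreated glands, at 1341 to 8446 CPM, against 5356 to 18350 CPM in untreated ganglia, with 10 of 71 and 4 of 71 at 0. Their part in the apolipophorin difference was not tested.

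Under lead 5 of 18 members were called, against 6.27% of all clusters: the same 4 MTP clusters were higher in the gland, against 2.57% of all, and Cluster-16698.23005 lower, against 3.70%. The log2 ratios of gland over ganglia were 5.10 ± 1.07 for Cluster-16698.55272 (adjusted p = 0.00886), 5.08 ± 1.34 for Cluster-16698.16936 (adjusted p = 0.0313), 4.68 ± 0.91 for Cluster-16698.66533 (adjusted p = 0.00558) and 3.73 ± 0.97 for Cluster-16698.50199 (adjusted p = 0.0301). All 4 calls ended without gland lead replicate 1 (adjusted p from 0.0741 to 0.285), the higher of the lead glands, and without ganglia lead replicate 1 (0.0525 to 0.268) or 2 (0.0916 to 0.329). Cluster-16698.50199 was also not called without ganglia combined replicate 2 (adjusted p = 0.0549). Under combined exposure, 3 of 18 members were called, against 6.27% of all clusters, and 2 of them, MTP clusters, were higher, against 1.95%: Cluster-16698.55272 (3.91 ± 1.01, adjusted p = 0.029) and Cluster-16698.66533 (3.85 ± 0.88, adjusted p = 0.0158). Both calls ended without ganglia combined replicate 1 (adjusted p = 0.177 and 0.167) or 2 (adjusted p = 0.237 and 0.0865), and that of Cluster-16698.55272 also without gland combined replicate 1 (adjusted p = 0.0642) or 2 (adjusted p = 0.0829). Cluster-16698.23005 was called lower, against 4.32% of all clusters, but not without gland combined replicate 2 (adjusted p = 0.0564) and, under lead, not without gland lead replicate 1 (adjusted p = 0.0593) or 2 (adjusted p = 0.0502). Under cadmium only Cluster-16698.23005 was called (lower, adjusted p = 0.00381), against 11.5% of all clusters, 6.04% lower and 5.48% higher. This cluster did not pass the count filter within glands and entered the comparison of tissues through the ganglia, where it is high, so its calls between tissues in each exposure and in the average had to run in that direction and are given as a description.

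**Figure D5:**
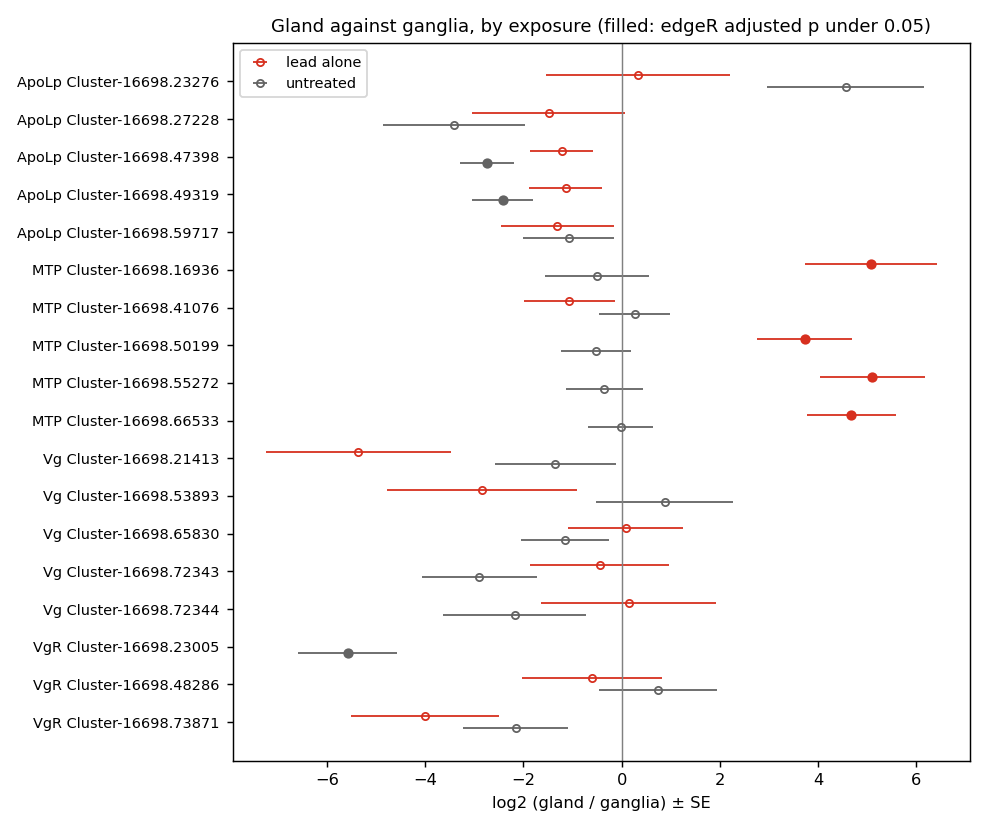
Log2 ratio ± SE of gland over ganglia for each member with a test over both tissues under lead alone and in untreated spiders; filled points are called by edgeR, and Cluster-16698.23005 is not drawn under lead, where the glands hold no counts of it. The 4 MTP clusters lie at 3.73 to 5.10 under lead and near 0 in untreated spiders, while the apolipophorins Cluster-16698.47398 and Cluster-16698.49319 are lower in untreated glands.

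Averaged over the 4 exposures, 4 members were called higher in the gland and 5 lower, against 15.8% and 18.4% of all clusters and 34.1% in either direction. The higher ones were the same 4 MTP clusters, with log2 ratios from 1.83 to 2.58. The lower ones were Cluster-16698.47398 (-1.48 ± 0.29), Cluster-16698.49319 (-1.64 ± 0.34), vitellogenin Cluster-16698.21413 (-3.14 ± 0.79) and the receptor clusters Cluster-16698.73871 (-2.25 ± 0.62) and Cluster-16698.23005. The direction of the last was fixed by the count filter, as described above. For Cluster-16698.21413 the glands ran from 0 to 1.45 CPM and the ganglia from 0.219 to 5.17 CPM. The adjusted p of these 9 calls ranged from 1.4e-06 to 0.00972.

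Among partners of the pathway, few lipoprotein receptors were called with lead in the gland. Of 71 tested receptor clusters, 2 were called higher and 0 lower, with a median log2 ratio of 0.15. Over all clusters 1.05% were higher and 0.631% lower, and 2 calls are too few to set the list apart from that. The summed level of the 104 listed receptor clusters did not overlap, at 3255 to 4303 CPM in glands with lead and 896 to 2521 CPM in glands without. The endocytic receptor low-density lipoprotein receptor-related protein 2 (Cluster-16698.49834) had 377 to 598 CPM in combined glands and 386 to 574 CPM in lead glands, against 38.8 to 86.9 CPM in cadmium glands and 21.4 to 126 CPM in untreated glands. It rose by 2.96 ± 0.47 (edgeR adjusted p = 0.0252), and no gland with lead overlapped one without. A very low-density lipoprotein receptor (Cluster-16698.39185) had 16.3 to 23.8 CPM in combined glands, 26.1 to 41.2 CPM in lead glands, 3.39 to 9.50 CPM in cadmium glands and 0.432 to 5.24 CPM in untreated glands. It rose by 2.76 ± 0.59 (adjusted p = 0.05, just under the threshold before rounding). In ganglia 10 of 80 receptor clusters were called higher with lead and 5 lower. Over all clusters 6.54% were higher and 5.69% lower, so the count of lower ones is near the background. The scavenger receptor class B member 1, a lipoprotein docking receptor (Cluster-16698.35774), had 116 to 131 CPM in combined and 113 to 121 CPM in lead ganglia, against 37.8 to 47.7 CPM in cadmium and 54.1 to 91.3 CPM in untreated ganglia, and rose by 1.11 ± 0.19 (adjusted p = 0.00918).

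Intracellular lipid carriers showed 4 of 52 clusters called higher and 0 lower with lead in the gland, and 5 of 47 higher and 2 lower in the ganglia. Over all clusters 1.05% were higher and 0.631% lower in the gland, and 6.54% and 5.69% in the ganglia, so the ganglia count is near the background. In the gland these included Niemann-Pick C1, a cholesterol exporter of lysosomes. Its Cluster-16698.20850 had 6.09 to 11.4 CPM in combined and 2.61 to 17.8 CPM in lead glands, against 0 to 0.203 CPM in cadmium and 0 to 0.123 CPM in untreated glands. The log2 ratio was 7.24 ± 1.07 (edgeR adjusted p = 0.0205). This cluster passed the count filter only through the glands with lead, where it is high. Its call, counted among the 4, had to run in that direction and is given as a description. In ganglia another Niemann-Pick C1 cluster (Cluster-16698.48973) rose by 1.44 ± 0.20 (adjusted p = 0.00536), and the lipocalin apolipoprotein D-like Cluster-16698.48606 rose by 2.17 ± 0.42 (adjusted p = 0.0137).

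Lipases were called higher with lead for 5 of 31 clusters in the ganglia and lower for 1, where 6.54% of all clusters were higher and 5.69% lower, the background for all counts in this paragraph. A gastric triacylglycerol lipase (Cluster-16698.43879) had 21.4 to 29.1 CPM in combined and 17.3 to 33.9 CPM in lead ganglia, against 2.77 to 3.86 CPM in cadmium and 2.75 to 5.01 CPM in untreated ganglia, and rose by 2.74 ± 0.26 (adjusted p = 0.00121). The midgut digestion list, whose sums in the same ganglia are given above, shares pancreatic lipases with this one, and its part was not tested. Of the 9 lipid droplet clusters, 1 was called higher and 1 lower with lead in the ganglia. Cluster-16698.65513, whose closest spider protein is uncharacterized, was the higher, with a log2 ratio of 1.003 ± 0.18 (edgeR adjusted p = 0.0118). The droplet surface protein Cluster-16698.42149 had 31.3 to 59.6 CPM in combined and 16.7 to 25.6 CPM in lead ganglia, against 51.3 to 85.2 CPM in cadmium and 66.5 to 119 CPM in untreated ganglia, and fell by 1.36 ± 0.28 (adjusted p = 0.016). Protein disulfide isomerases, the MTP partner in vertebrates, were not called with MTP. In the gland the summed level of the 11 clusters was 770 to 1528 CPM with lead and 1312 to 1927 CPM without, with a median log2 ratio of -0.66 over the 9 tested and a smallest adjusted p of 0.145. In the ganglia 1 of 8 was called higher.

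The clusters most like the leading members were named by the correlation of log2(CPM + 0.5) over the 20 libraries, among 14633 described clusters, as a description of libraries that share exposures, tissue and depth. Nearest to apolipophorin Cluster-16698.47398 were 3 clusters of tyrosine aminotransferase (r of 0.929, 0.901 and 0.897), a solute carrier organic anion transporter (0.907) and a phosphatidylinositol phosphatase (0.898). Nearest to MTP Cluster-16698.50199 were another organic anion transporter (0.901), a major facilitator protein (0.89), a dimethylaniline monooxygenase (0.886), a keratin-associated protein (0.883) and a very long chain fatty acid elongase (0.882). Nearest to vitellogenin Cluster-16698.72344 were an ADP-sugar pyrophosphatase (0.819), a clavesin (0.794), a hypothetical protein (0.779), a prefoldin subunit (0.777) and a fumarylacetoacetase (0.774).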

How the data were processed

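The authors deposited estimated counts (expected counts) per assembled cluster, and a second table that scales them to cluster length and depth as FPKM, a unit read from the deposited values because no header names it. The cluster length in bases, entered here under the unit score, is as deposited by the authors. The sources used here name no assembler, aligner or counting tool. RNA was purified with RNeasy columns and libraries made with a SMARTER kit, per the labels' protocols.

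Counts (5.05% not whole) were rounded. Leaving out 4 copied columns left 20 libraries where the plan had 24. Each tissue (10 libraries), and both together, were fitted with edgeR 4.0.16 in R 4.3.3, using filterByExpr, TMM factors, robust glmQLFit and a mean for each group, with Benjamini-Hochberg adjustment over all clusters tested. All groups share an estimate of the spread, so a pair of libraries borrows it from the rest. FPKM gave levels per length and, over clusters of at least 1000 bases and over 200 counts, the implied fragment length. Totals of 14834065 to 20954478 counts set the precision, and floors of 3 counts cover counting error only.

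Members, gene lists and comparisons were chosen with earlier results of these data known. Members with a mean of at least 1 CPM in a group, or a call, are named; genes of related lists come from the 2 highest and up to 2 called per comparison. The hemocyanin subset and the test of lead by tissue were added after the data were seen. Scripts were tested on simulated data. Alternatives were RLE and TMMwsp scaling, other filters, a replicate block, DESeq2 1.42.0, a fit of 2 groups alone, and leaving out single libraries. Python 3.11.15 with pandas 2.3.3 summarized the tables.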

Additional observations from a re-analysis of the deposited data

Results flagged for a closer look

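The MTP cluster Cluster-16698.50199 had values on opposite sides of untreated in the 2 tissues, although it was called in neither. Under lead alone the difference of log2(mean CPM + 0.5) from untreated was 2.94 in the gland and -1.24 in the ganglia. Under combined exposure it was 2.58 in the gland and -0.80 in the ganglia. In each case all exposed libraries lay on one side of all untreated libraries of their tissue, on opposite sides in the 2 tissues. It was singled out by these positions alone, in which the difference was not tested. In the edgeR fit of both tissues, the change with lead differed between them with an adjusted p of 0.19, and the changes over all exposures with an adjusted p of 0.647.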

How the results depend on the processing

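Counts below are members called at an adjusted p under 0.05. No result changed direction. With no filter on low counts there were 2 in ganglia under cadmium (0 in the fit reported above), 4 under lead (1), 2 under combined exposure (0), 4 with lead averaged (2) and 3 for the departure (0). In the gland there were 6 under lead (0), 5 under combined exposure (0) and 5 with lead averaged (3). Between tissues there were 5 untreated (3), 4 under cadmium (1), 5 under combined exposure (3), 4 for lead by tissue (0) and 4 for exposure by tissue (0). DESeq2 called 1, 5 and 2 in ganglia for cadmium, lead and the departure, and 4, 4 and 6 in the gland for lead, combined and lead averaged. Between tissues it called 5 untreated, 2 under cadmium, 5 under combined exposure, 4 for lead by tissue and 3 for exposure by tissue. A filter of 1 CPM in 3 libraries and a fit of only the 2 groups each gave 2 in ganglia under lead. Under cadmium between tissues, RLE, TMMwsp and the 1 CPM filter gave 2 each and only the 2 groups gave 5. The cause was not tested.

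Leaving out 1 library gave 0 to 5 with lead averaged in the gland, 0 to 2 under lead and 0 to 3 with lead averaged in ganglia, and 0 to 2 under combined exposure in the gland. Between tissues it gave 2 to 5 untreated, 1 to 3 under cadmium, 0 to 5 under lead, 1 to 5 under combined exposure and 0 to 2 for lead by tissue. Where this leaves 1 library in a group, that library is assumed to vary like the others. Same-numbered libraries did not deviate together (correlations of -0.197 to 0.2 over the pairs within a tissue and -0.266 to 0.0742 between gland and ganglia of one exposure), so the data give no sign that numbers pair libraries. With a replicate block, lead averaged in the gland gave 0 (3 without the block), and no other count of members moved by over 1.5 times. Over all clusters, lead averaged in the gland gave 749 calls, against 6930 with DESeq2, 4753 with no filter, 39 with the block and 1162 with the 1 CPM filter; in ganglia it gave 4730, against 7944, 7271, 2288 and 4918. Of results for single clusters, 954 kept their side of the threshold, 49 came under it and 55 left it. TMMwsp put the median log2 ratio of all clusters between untreated tissues at 0.00052, against 0.10 with TMM. With 2 or 3 libraries a group, changes that miss the threshold are not shown to be absent.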
